A study of Homo sapiens with 12 samples.

Results

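The aldo-keto reductases are a family of enzymes that reduce aldehydes and ketones with NADPH. The genes AKR1A1, AKR1B1, AKR1B10, AKR1C1, AKR1C2, AKR1C3, AKR1C4, AKR7A2 and AKR7A3 were followed here in the human prostate carcinoma line 22Rv1, an established cell line, during treatment with a small compound presented in the series title as inhibiting the transcription factor ONECUT2. Members were all probe sets that the platform annotation assigns to these 9 genes, 16 of the 54675 probe sets on the array. AKR1C1 had 5 probe sets of its own, AKR1C2 had 3, AKR7A2 and AKR7A3 had 2 each, and AKR1C3, AKR1C4 and AKR1B10 had 1 each. The remaining probe set, 1555854_at, is assigned to both AKR1C2 and AKR1C1 and is reported separately. No probe set was listed for AKR1A1 or AKR1B1, whose levels are not analysed here. The family was chosen with the 16 h increases of AKR1C1 and AKR1C2 already known from these arrays, so all values that involve the 16 h arrays are given as a description, without a p-value for any member.

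The data were 12 Affymetrix U133 Plus 2.0 arrays, 3 in each of 4 groups. All groups were 22Rv1 cells in RPMI-1640 medium with 10% fetal bovine serum. No time is labelled for the vehicle group, with which every treated group was compared. The compound and any difference in culture time therefore cannot be told apart in a comparison with vehicle. The other groups received the compound, coded 617 in the titles, for 4 h, 6 h or 16 h. The 16 h titles lack a code element that the other 9 titles carry, so the compound and anything else that differed with that code cannot be told apart in a comparison with the 16 h arrays. Nothing states that replicates came from separate cultures. The spread between arrays, on which all p-values rest, may therefore be technical.

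Enzymes of the AKR1C group act on the ketone and hydroxyl groups of steroid hormones, and in prostate cells they help set how much active androgen is present. Several members also remove reactive aldehydes and quinones, and AKR1C1, AKR1C2 and AKR1B10 are well known as genes induced through NRF2, the transcription factor of the response to oxidative and electrophilic stress. AKR7A2 and AKR7A3 belong to a separate branch that reduces the dialdehydes formed from aflatoxin and, for AKR7A2, succinic semialdehyde. The AKR1C genes lie side by side in a cluster and are so alike in sequence that probes for one can bind transcripts of another.

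That likeness extends to the promoters. RefSeq windows of the 250 bases before the transcript start, on GRCh38.p14, were found for 8 of the 9 genes. They are shown for the 4 AKR1C genes and for AKR7A2, whose probe sets moved apart. AKR1C3 and AKR1C4 had smaller 16 h differences than the brightest AKR1C1 and AKR1C2 sets, which followed the same course. Differences between genes were not tested. Each window is on the gene's own strand from 5′ to 3′, with the motif matches described after them in capitals. The AKR1C1 window is chr10:4963165-4963414 on the plus strand and the AKR1C2 window is chr10:5003858-5004107 on the minus strand. The first AKR1C3 start gives chr10:5048531-5048780 and AKR1C4 gives chr10:5196587-5196836, both on the plus strand. The first AKR7A2 start gives chr1:19312145-19312394 on the minus strand.
AKR1C1: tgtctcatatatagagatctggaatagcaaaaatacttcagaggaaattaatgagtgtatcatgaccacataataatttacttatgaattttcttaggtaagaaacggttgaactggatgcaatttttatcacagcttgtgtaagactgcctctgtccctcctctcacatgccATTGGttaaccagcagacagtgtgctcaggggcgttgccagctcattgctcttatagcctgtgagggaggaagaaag
AKR1C2: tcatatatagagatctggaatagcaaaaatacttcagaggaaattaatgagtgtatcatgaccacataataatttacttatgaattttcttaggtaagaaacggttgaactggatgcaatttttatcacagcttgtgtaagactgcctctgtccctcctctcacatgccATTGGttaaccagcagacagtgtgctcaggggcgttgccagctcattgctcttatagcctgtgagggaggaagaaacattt
AKR1C3: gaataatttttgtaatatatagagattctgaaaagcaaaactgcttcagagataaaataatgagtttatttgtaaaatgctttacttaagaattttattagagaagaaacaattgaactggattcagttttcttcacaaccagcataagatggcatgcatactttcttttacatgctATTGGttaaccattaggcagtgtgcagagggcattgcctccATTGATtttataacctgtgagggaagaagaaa
AKR1C4: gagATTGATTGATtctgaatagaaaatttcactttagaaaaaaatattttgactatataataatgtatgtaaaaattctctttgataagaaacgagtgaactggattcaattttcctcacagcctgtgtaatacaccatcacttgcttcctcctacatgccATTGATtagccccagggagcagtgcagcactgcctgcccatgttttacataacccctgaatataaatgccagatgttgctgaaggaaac
AKR7A2: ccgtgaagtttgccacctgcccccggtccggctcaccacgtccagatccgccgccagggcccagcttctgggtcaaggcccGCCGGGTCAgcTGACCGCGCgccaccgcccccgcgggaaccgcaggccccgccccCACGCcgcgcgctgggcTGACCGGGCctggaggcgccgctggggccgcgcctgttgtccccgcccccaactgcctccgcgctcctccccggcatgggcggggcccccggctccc

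The AKR1C1 and AKR1C2 windows matched at 245 of 254 aligned positions, an identity of 96.5%. AKR1C1 shared 72.4% of aligned positions with the first AKR1C3 window and 64% with AKR1C4, against 41.3% with AKR7A2. The windows thus place AKR1C1 and AKR1C2 closest to each other, then AKR1C3, then AKR1C4.

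5 motifs were searched on both strands: CCAAT, the antioxidant response element core TGACNNNGC to which NRF2 binds, the AP-1 site TGANTCA, the xenobiotic response element core GCGTG, and ATTGAT, the core bound by ONECUT factors. The capitals mark every match, and matches on the minus strand read as the reverse complement. A CCAAT match, read as ATTGG, was found in AKR1C1 (bases -77 to -73 from the start), AKR1C2 (-81 to -77) and AKR1C3 (-73 to -69 at its first start, -86 to -82 at its second). A further CCAAT match lay at -98 to -94 in AKR1B1, and CCAAT occurs in 32% of the 35116 RefSeq windows of this length. The ONECUT core was found at -32 to -27 in the first AKR1C3 window and 3 times in AKR1C4, at -247 to -242, at -243 to -238, overlapping it, and at -89 to -84. That core occurs in 5.58% of all windows.

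None of the AKR1C windows held the antioxidant response element core, which 10.9% of all windows hold. The AKR7A2 window held it 3 times, at -169 to -161 on the minus strand and at -158 to -150 and -97 to -89 on the plus strand. The xenobiotic core, in 32.2% of windows, was found in AKR7A2, AKR7A3 and AKR1B1, and the AP-1 site, in 6.57% of windows, in no member. A match is a description of the letters, and a missing match says only that the letters are not in this window.

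**Figure D1:**
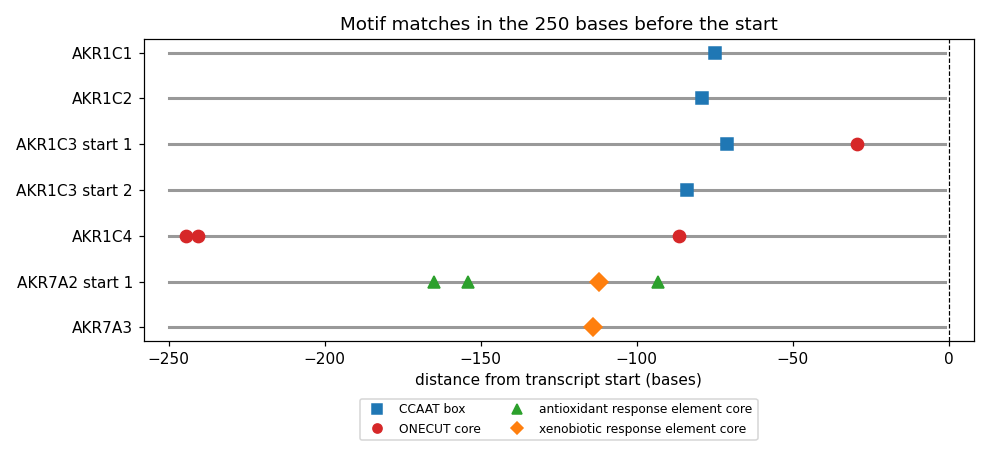
Motif matches in the 250 bases before the transcript start of 6 aldo-keto reductase genes, with distance from the start in bases on the horizontal axis and 1 line per RefSeq window. The AKR1C1, AKR1C2 and both AKR1C3 windows carry a CCAAT match between -86 and -69, AKR1C4 carries 3 ONECUT core matches, and the antioxidant response element core appears in AKR7A2 alone among the windows drawn.

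Values are log2 GCRMA signals as deposited. A signal was judged against the highest Bacillus control probe set on the same array, which averaged 2.14 on vehicle, 1.99 at 4 h, 2.08 at 6 h and 1.94 at 16 h. Array medians lay between 2.10 and 2.15. Of the 16 member probe sets, 13 had a mean over the 12 arrays at or above 2.11, the median over all probe sets, and were tested among 27306 probe sets with limma. The 3 others, 206561_s_at of AKR1B10, 1555855_at of AKR1C1 and 244266_at of AKR1C2, are described by their values. 217626_at of AKR1C1 passed this filter only through its 16 h arrays. All 8 measured markers of 22Rv1 prostate epithelial cells, KRT18, EPCAM and CDH1 among them, were above the control on all 12 arrays, while KLK3 was low, at 4.14 on vehicle. None of 5 leukocyte markers was above the control on all arrays, and of 5 endothelial markers only PECAM1 was, with VWF, CDH5 and KDR above it on no array.

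On vehicle arrays AKR1C3, AKR7A2, AKR7A3 and the _x_at sets of AKR1C1 and AKR1C2 were detected well above the controls, as seen in the plot of member signals by array. 217626_at and 1555855_at of AKR1C1 and 244266_at of AKR1C2 were not above the control on any vehicle array. 1555856_s_at of AKR1C1 lay just above it, at a mean of 2.25. Since _x_at sets can bind related transcripts, separate detection of AKR1C1 and AKR1C2 is not shown. The main AKR1C1 and AKR1C2 sets lay between 8.20 and 9.61 and AKR1C3 between 8.61 and 8.81. The AKR7A2 sets lay between 6.87 and 8.11 and the AKR7A3 sets between 4.86 and 5.15. AKR1C4 was at the level of the controls and AKR1B10 below it. These ranges describe each probe set's own signal and do not rank the genes, since probe sets bind with different strength.

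AKR1C1, which reduces progesterone to a less active form, was followed by 204151_x_at and 216594_x_at at high signal. 204151_x_at read 9.48, 9.53 and 9.43 on the vehicle arrays, 9.45, 9.49 and 9.66 at 4 h, 9.71, 9.66 and 9.61 at 6 h, and 11.78, 11.76 and 11.75 at 16 h. The 4 h arrays overlapped vehicle, the 6 h arrays were all just above it, and the 16 h arrays stood far apart from every other array. The 16 h difference from vehicle was 2.28 ± 0.07 (SE, n = 3 arrays per group) on the log2 scale, a 4.85-fold higher signal. In RNA pooled from a culture, a higher level in every cell and a larger share of cells with a high level cannot be told apart. 216594_x_at read 9.36, 9.61 and 9.49 on vehicle, 9.51, 9.56 and 9.64 at 4 h, 9.77, 9.69 and 9.62 at 6 h, and 11.61, 11.47 and 11.51 at 16 h. Its pattern was that of the first set, with 6 h above vehicle by a narrow margin and a 16 h signal 4.12-fold higher.

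The other AKR1C1 probe sets were dim, and they did not move together. 217626_at lay at 1.47 to 1.79 on vehicle, 1.39 to 1.70 at 4 h and 1.61 to 1.92 at 6 h, not above the control on any of these arrays, and read 3.26, 4.01 and 3.96 at 16 h. Against the control level, the 16 h signal of this set was at least 3.04-fold higher than vehicle. 1555856_s_at, at 2.12 to 2.37 on vehicle, read 2.44, 2.11 and 2.63 at 16 h, so its groups overlapped, and the difference was 0.14 ± 0.13 (SE, n = 3 per group). 1555855_at lay between 0.81 and 1.14, below the control on all 12 arrays. The AKR1C1 probe sets therefore disagreed at 16 h, with the bright pair 4.12-fold and 4.85-fold higher than vehicle, 217626_at higher by at least its bound, and the other 2 at or below the dim end of the measurable range.

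AKR1C2, which inactivates dihydrotestosterone by reducing its ketone, followed the same course. 209699_x_at read 9.54, 9.59 and 9.51 on vehicle, 9.53, 9.46 and 9.75 at 4 h, 9.62, 9.74 and 9.69 at 6 h, and 11.97, 12.06 and 12.06 at 16 h. All 6 h arrays were above the highest vehicle array, the nearest by a small margin, and the 16 h arrays were 5.59-fold above the vehicle mean, a difference of 2.48 ± 0.08 (SE, n = 3 per group). 211653_x_at read 8.29, 8.20 and 8.39 on vehicle, 8.32, 8.37 and 8.32 at 4 h, 8.34, 8.38 and 8.58 at 6 h, and 10.49, 10.43 and 10.48 at 16 h. In this set the 6 h arrays overlapped vehicle, and the 16 h signal was 4.51-fold higher. 244266_at stayed near the control level throughout, with 1.75 to 1.98 on vehicle and 1.51 to 1.90 at 16 h.

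The shared set 1555854_at gave the largest 16 h difference in the family. It read 2.65, 2.80 and 2.28 on vehicle, 2.21, 2.51 and 2.97 at 4 h, 2.27, 2.42 and 2.58 at 6 h, and 6.54, 6.52 and 6.73 at 16 h. The 3 early groups overlapped just above the control, and the 16 h arrays were higher by 4.02 ± 0.18 (SE, n = 3 per group), or 16.2-fold. Of all tested probe sets, 0.0183% had a larger 16 h difference, against 0.147% for 209699_x_at and 0.223% for 204151_x_at. Because _x_at sets can bind transcripts of several related genes and 1555854_at is assigned to both, the separate contributions of these genes to the _x_at and shared signals cannot be told apart.

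AKR1C3, which makes testosterone and dihydrotestosterone from weaker androgens, differed less from vehicle at 16 h than the bright AKR1C1 and AKR1C2 sets. Its single set 209160_at read 8.61, 8.70 and 8.81 on vehicle, 8.76, 8.65 and 8.63 at 4 h, 8.62, 8.78 and 8.82 at 6 h, and 9.43, 9.36 and 9.33 at 16 h. The first 3 groups overlapped, and every 16 h array was above them by over 0.5 on the log2 scale. The 16 h difference was 0.67 ± 0.08 (SE, n = 3 per group), a 1.59-fold higher signal, and 7.25% of tested probe sets had a larger one. AKR1C3 was therefore 1.59-fold above vehicle where the bright AKR1C1 and AKR1C2 sets were 4.12-fold to 5.59-fold above it. The difference between these genes was not tested.

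AKR1C4, the liver enzyme of bile acid synthesis, was near the control level in these cells. 210558_at read 2.15, 2.23 and 2.31 on vehicle, 2.22, 2.21 and 2.35 at 4 h, 2.12, 2.07 and 2.23 at 6 h, and 2.71, 2.86 and 3.01 at 16 h. The signal was above the control on 2 of 3 vehicle arrays, 1 of 3 arrays at 6 h and all 3 at 16 h. The 16 h arrays were the only ones clear of the rest, by 0.63 ± 0.09 (SE, n = 3 per group), a difference measured from a signal near background. AKR1B10, a retinal reductase of the gut that many tumours express, was not above the control on any vehicle, 4 h or 6 h array, where 206561_s_at lay between 1.06 and 1.47. At 16 h it read 2.00, 2.14 and 2.45, above the control on all 3 arrays but by little, so that the bound on the difference was only at least 1.04-fold higher.

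The AKR7A branch did not share the AKR1C pattern. 202139_at of AKR7A2 read 8.11, 8.03 and 8.11 on vehicle, 7.96, 8.09 and 8.07 at 4 h, 8.20, 8.22 and 8.14 at 6 h, and 7.50, 7.49 and 7.77 at 16 h. Its 6 h arrays were all above vehicle and its 16 h arrays all below it, by 0.50 on the log2 scale, a 1.41-fold lower signal. 214259_s_at of the same gene read 6.87, 6.96 and 6.96 on vehicle, 6.98, 7.03 and 7.01 at 4 h, 6.92, 7.03 and 7.06 at 6 h, and 7.29, 7.14 and 7.21 at 16 h. Here the 16 h arrays were all above vehicle, by 0.28 ± 0.07 (SE, n = 3 per group), so the pair of AKR7A2 sets moved in opposite directions at 16 h. With each array centred on its median, the 16 h difference of 214259_s_at was 0.20, so its size, though not its sign, depended on the scaling.

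AKR7A3, the aflatoxin aldehyde reductase, differed little between groups. 206469_x_at read 4.995, 5.09 and 5.04 on vehicle and 4.61, 4.90 and 4.91 at 16 h, with all 16 h arrays below vehicle by 0.24 on average, and with 4.92 to 5.22 at the early times. Replicate 1 at 16 h was the lowest of all 12 arrays on this set, and without it the difference from vehicle was -0.14. 216381_x_at read 4.86, 4.86 and 5.15 on vehicle and 4.93, 5.10 and 4.99 at 16 h, overlapping throughout. Its 16 h difference of 0.05 was -0.03 after quantile normalisation and with each array centred on its median, so it has no stable sign.

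**Figure D2:**
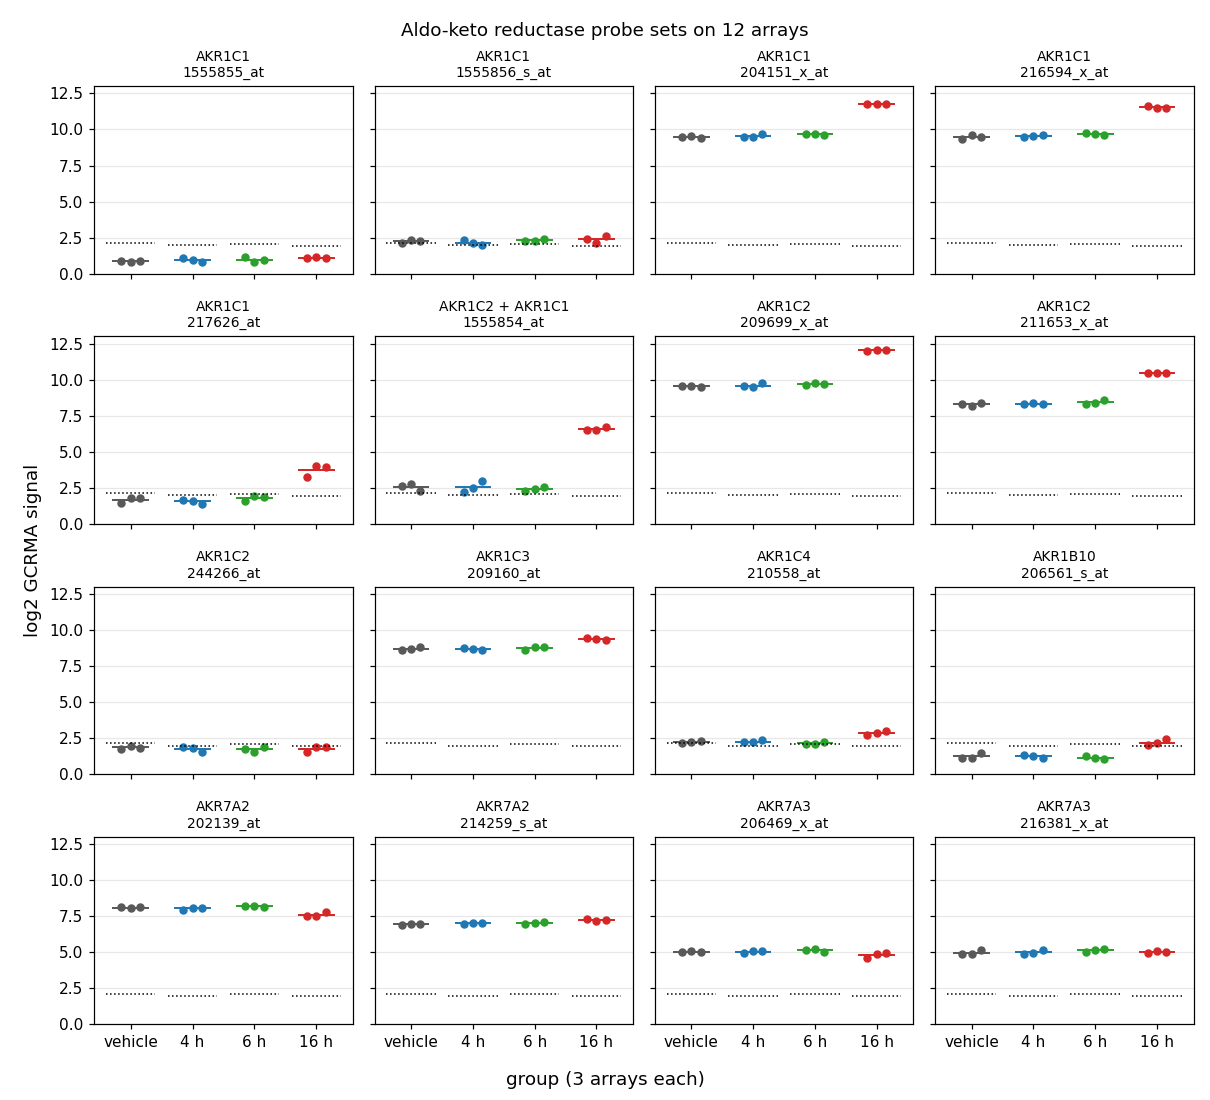
Log2 GCRMA signal of all 16 aldo-keto reductase probe sets, 1 panel each, on vehicle, 4 h, 6 h and 16 h arrays (3 per group), with points for arrays, short lines for group means and dotted lines for the group mean of the highest Bacillus control. The bright AKR1C1 and AKR1C2 sets and the shared set 1555854_at step up at 16 h, and AKR1C3 by less. The 6 h arrays of 204151_x_at, 216594_x_at and 209699_x_at already lie just above vehicle. AKR1C4 is clear of the dotted control line only at 16 h, and 202139_at of AKR7A2 steps down at 16 h.

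The early times carry the tests, since the family was not chosen on them. 217626_at of AKR1C1 counts among the 13 tested sets, but it was not above the control on any vehicle, 4 h or 6 h array. Its early tests therefore say nothing about a change in this set. At 4 h none of the 13 tested member sets passed an adjusted p of 0.05, where 0.293% of all tested probe sets did (limma, Benjamini-Hochberg over 27306 probe sets), and none had an unadjusted p below 0.05, against 11.4% of all. The largest 4 h difference among the bright sets was 0.08 (95% interval -0.09 to 0.26) for 216594_x_at of AKR1C1. For 209699_x_at of AKR1C2 it was 0.03 (95% interval -0.14 to 0.21, adjusted p = 0.921), and for AKR1C3 it was -0.03 (95% interval -0.20 to 0.15). The interval for AKR1C2 leaves out a rise of the size seen at 16 h. The 4 h arrays lay wholly above vehicle in 1 member set, 214259_s_at of AKR7A2, and wholly below in 0, against 7.84% and 10.2% of all tested sets.

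At 6 h again none of the 13 sets passed, with 0.681% of all tested sets passing. 2 of them, both AKR1C1, had an unadjusted p below 0.05, as had 11.6% of all tested sets. 204151_x_at was higher than vehicle by 0.18 ± 0.07 (SE; 95% interval 0.02 to 0.33). Its adjusted p was 0.352 by limma and ranged from 0.0984 to 0.575 over the alternatives. 216594_x_at was higher by 0.21 (95% interval 0.03 to 0.38), with an adjusted p of 0.34 by limma. 209699_x_at and 211653_x_at of AKR1C2 both differed by 0.14, with intervals of -0.04 to 0.31 and -0.03 to 0.32. AKR1C3 differed by 0.03 (95% interval -0.14 to 0.21) and 202139_at of AKR7A2 by 0.10 (95% interval -0.08 to 0.29).

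4 member sets lay wholly above vehicle at 6 h, 204151_x_at and 216594_x_at of AKR1C1, 209699_x_at of AKR1C2 and 202139_at of AKR7A2, where 6.93% of all tested sets did so, and 0 lay wholly below, against 10%. The first 3 bind transcripts of the same near-identical genes and are not independent observations. The median 6 h difference over the tested members, with 217626_at counted, was 0.10, and over all tested probe sets 0.00. Between 6 h and 4 h no member passed either, in a limma comparison where 0.0183% of all tested sets did, and 0 members had an unadjusted p below 0.05, against 8.58% of all. At these times no difference of the AKR1C1 or AKR1C2 sets from vehicle was called, and their intervals end below 0.4 for every bright set.

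**Figure D3:**
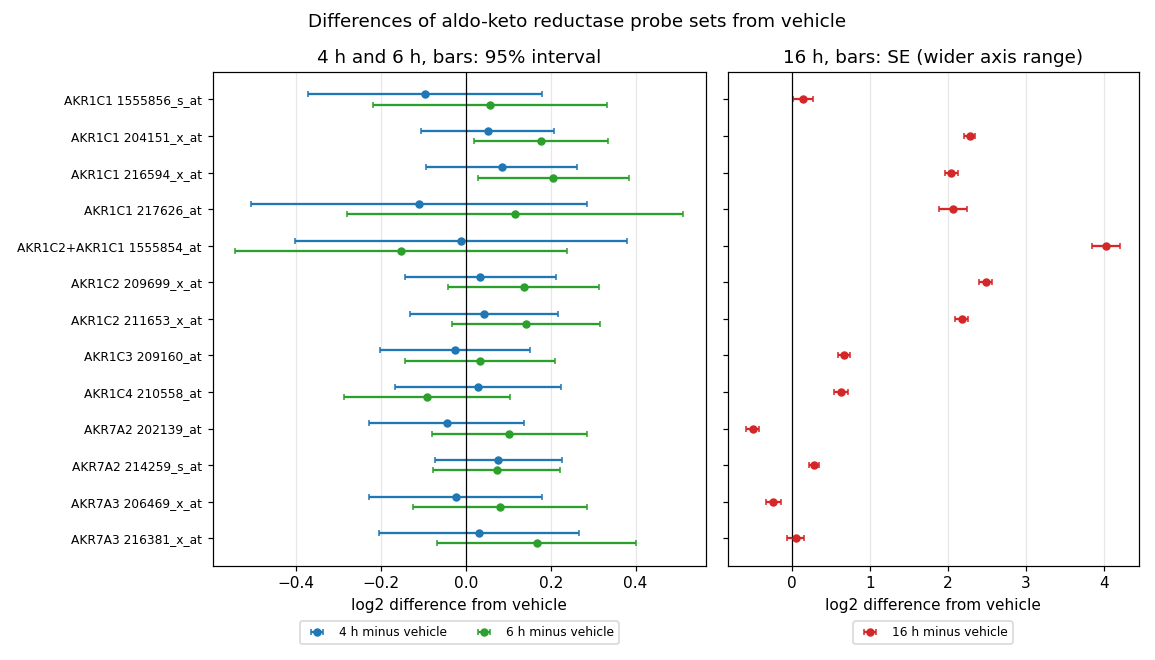
Log2 difference from vehicle of the 13 tested aldo-keto reductase probe sets at 4 h and 6 h (left, bars show 95% intervals of the limma fit) and at 16 h (right, bars show the standard error, on a wider axis). At 4 h and 6 h all points lie within 0.25 of 0, while at 16 h the bright AKR1C1 and AKR1C2 sets lie between 2.04 and 2.48, and the points of 217626_at are differences from a vehicle signal not above the control.

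At 16 h the arrays differed from vehicle across the whole table, and the family has to be read against that. Of all tested probe sets 39.7% passed, 23% higher and 16.7% lower. Of the calls 57.9% were higher as deposited, but 49.6% after quantile normalisation and 45.5% with each array centred on its median, so the balance of directions rests on the scaling. Among the 13 tested members 9 were called higher and 1 lower, and nothing is read from that count, since the family was chosen on this contrast. In 11 of the 16 member sets the 16 h arrays lay wholly above vehicle and in 2 wholly below. The 11 include 206561_s_at of AKR1B10 and 1555855_at of AKR1C1, which did not pass the filter. 1555855_at was not above the control on any 16 h array. They also include 217626_at of AKR1C1, which passed only through its 16 h arrays. Over the tested probe sets alone the shares were 28% above and 21.1% below, so the member counts have a different base. From 6 h to 16 h, 9 of the 13 were called higher and 2 lower, where 38.4% of all tested sets were called, 23.7% higher and 14.7% lower. The 16 h arrays on which the family was chosen enter both comparisons, and nothing is read from either count.

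Several features of the arrays moved with the 16 h group. The excess of 3′ over 5′ signal for ACTB on the log2 scale, a measure of how far labelled RNA reaches from the 3′ end, was 2.80 ± 0.07 (SD, n = 3) on vehicle, 2.68 ± 0.09 (SD, n = 3) at 4 h, 3.02 ± 0.34 (SD, n = 3) at 6 h and 4.09 ± 0.09 (SD, n = 3) at 16 h. For GAPDH the same excess was -0.46 ± 0.02 (SD, n = 3) on vehicle and -0.43 ± 0.04 (SD, n = 3) at 16 h, so the second control gene did not show a shift of that size. The summed signal of 8 fibroblast markers ranged from 20.2 to 21.7 on vehicle and from 23.2 to 24.2 at 16 h, with COL1A1 at 3.77 and 5.82 and LUM at 4.10 and 5.35. DCN went the other way, at 3.44 and 2.85, as did COL3A1, at 2.43 and 2.06, so the higher sum came from COL1A1 and LUM. Of these fibroblast markers, COL1A2, PDGFRB and FAP were not above the control on any of the 12 arrays. COL1A1, DCN and LUM were above it on all 12, and COL3A1 and THY1 on 11. The summed signal of the 8 epithelial markers was 68.1 to 68.6 on vehicle and 65.4 to 66.2 at 16 h, with KLK2 at 6.38 and 5.09 and HOXB13 at 7.46 and 6.40. KLK3, at 4.14 and 3.79, and FOXA1, at 9.71 and 9.46, were lower by less. KRT8, at 8.56 and 8.58, was not lower. Neither were KRT18, at 11.29 and 11.48, EPCAM, at 10.14 and 10.24, and CDH1, at 10.61 and 10.73. The part of these shifts in the 16 h values of the members, including the opposed AKR7A2 sets, was not tested.

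Other genes that reduce or oxidise carbonyl groups, or that act on steroids or polyols, rose in part and fell in part at 16 h. Each gene was read from its brightest probe set, and the shares over all 12635 tested genes at 16 h were 24.7% higher and 15.9% lower. Of 19 tested carbonyl-reducing short-chain dehydrogenases, which do related chemistry with an unrelated protein fold, 3 rose and 8 fell at 16 h, with a median difference of -0.09 against 0.05 over all tested genes. CBR1, the main cytosolic carbonyl reductase, rose 2.29-fold, the retinal reductase DHRS3 1.56-fold and the retinol dehydrogenase RDH10 1.32-fold. DCXR, which reduces L-xylulose, was 2.01-fold lower, DHRS13 1.49-fold, HSD17B8 1.37-fold and DHRS11 1.35-fold. The count of 3 was 2 without vehicle replicate 2 or 16 h replicate 1 and 5 without 16 h replicate 3. The count of 8 that fell was 9 after quantile normalisation and with each array centred on its median.

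Of 14 tested aldehyde dehydrogenases, which oxidise the aldehydes that aldo-keto reductases reduce, 3 rose and 4 fell, with a median of -0.20. ALDH1L2, a mitochondrial folate enzyme, rose 1.73-fold, ALDH2 1.41-fold and ALDH1A1, a retinal oxidiser, 1.31-fold. ALDH5A1, which oxidises succinic semialdehyde, was 1.46-fold lower, ALDH7A1 1.26-fold, ALDH3B2 1.25-fold and ALDH9A1 1.21-fold. The count of 4 that fell was 2 without vehicle replicate 3, without 16 h replicate 1 or with no filter, where 19 were tested. It was 5 after quantile normalisation and 6 with each array centred on its median. The list of hydroxysteroid and steroid reductases also holds other steroid enzymes, UGT2B15, UGT2B28 and STS among them. Of its 12 tested genes, 2 rose. These were SRD5A1, which makes dihydrotestosterone, 1.29-fold and UGT2B15, which conjugates androgens and is not a reductase, 1.24-fold. HSD17B4, a peroxisomal enzyme of fatty acid oxidation, was 1.23-fold lower. The count that fell was 2 without 16 h replicate 3, after quantile normalisation and with each array centred on its median.

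Of 6 tested genes of polyol and aldose handling, GLYCTK rose 1.60-fold and DCXR, counted above as well, fell. Without vehicle replicate 3, 2 genes of this list fell. Of 11 further genes of the aldo-keto reductase superfamily, 5 had a probe set and 1, AKR1E2, was tested, with a 16 h difference of 0.14 that was not called. At 4 h and 6 h limma called none of the 51 tested genes of these 5 lists, against 0.293% and 0.681% of all tested probe sets. An unadjusted p below 0.05 was found for 5 of them at 4 h and 3 at 6 h. Over all tested probe sets 11.4% had such a p at 4 h and 11.6% at 6 h.

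NRF2 target genes outside the family, a list that holds CBR1 and CBR3 too, had the highest median of the 6 lists. Of 25 tested, 19 rose at 16 h and 0 fell, with a median difference of 0.98. Over all tested genes 24.7% were higher and 15.9% lower. This list, like the others, was chosen with earlier results of these data known, so its 16 h counts are a description. The largest were HMOX1, which degrades heme, at 6.70 ± 0.14 (SE), the stress-response gene OSGIN1 at 3.13, the glutathione synthesis subunit GCLM at 2.06, and SRXN1, which restores oxidised peroxiredoxins, at 1.97 on the log2 scale. The bright AKR1C1 and AKR1C2 sets, at 2.04 to 2.48, lay among the upper values of this list, and AKR1C3, at 0.67, below its median. HMOX1 was the one listed gene called at 4 h, 1.16 ± 0.14 (SE) higher with an adjusted limma p of 0.00691, and the one called at 6 h, 0.94 ± 0.14 (SE) higher with an adjusted limma p of 0.0219. At 4 h the call was lost where only the 2 groups compared entered the fit, and over all alternatives the adjusted p ranged from 0.00011 to 0.0708. At 6 h it ranged from 0.00157 to 0.107 and was above 0.05 without vehicle replicate 1 (0.075), vehicle replicate 3 (0.0799), 6 h replicate 2 (0.0839) or 6 h replicate 3 (0.0916). With 1 probe set per gene (0.0647) and with only the 2 groups compared (0.107) the 6 h call was lost as well. Without vehicle replicate 2, 2 listed genes were called at 6 h. The trended and robust prior called more of the list, 3 genes at 4 h and 6 at 6 h, and the 75th percentile filter called 2 of 20 at 4 h and 3 of 20 at 6 h.

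**Figure D4:**
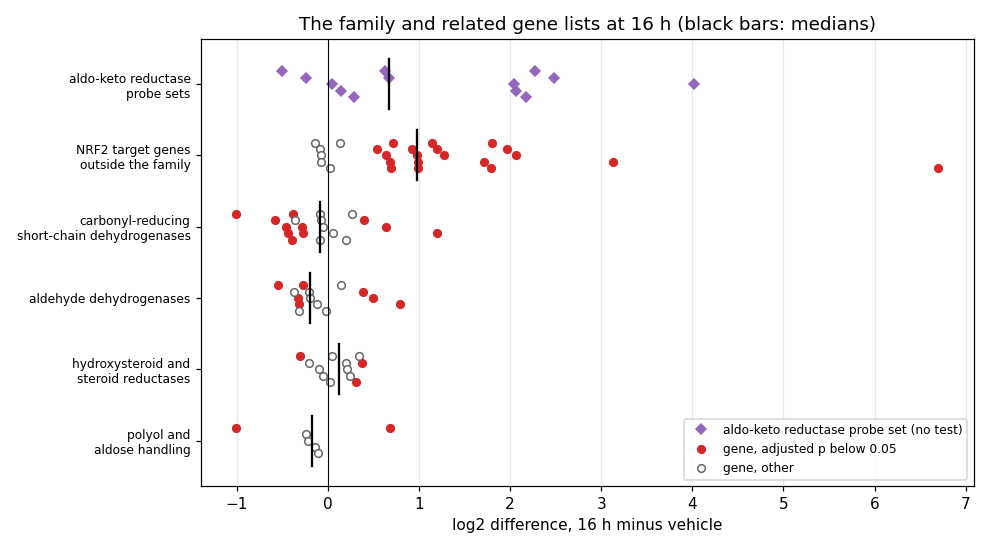
Log2 difference at 16 h from vehicle for the 13 tested aldo-keto reductase probe sets (diamonds, described without a p-value) and for the genes of 5 related lists (circles, filled where the adjusted limma p was below 0.05), with black bars for medians. The NRF2 targets have a median of 0.98, while the other 4 lists have medians between -0.20 and 0.12.

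Genes whose course over the 9 treated arrays was most like that of AKR1C2 (209699_x_at) were sought among 12628 tested genes outside the family, by the root mean square distance between differences from each gene's own vehicle mean. The nearest were GADD45A, a DNA damage and stress response gene, at a distance of 0.113, its relative GADD45B at 0.169, ANKRD37 at 0.175, NIBAN1 at 0.178 and GRB10, a growth factor receptor adaptor, at 0.180. Their 16 h differences ran from 2.40 to 2.60, and GADD45A differed from vehicle by 0.13 at 4 h and 0.09 at 6 h. Within the family the nearest sets were 204151_x_at of AKR1C1 at 0.138 and 211653_x_at of AKR1C2 at 0.209, while AKR1C3 stood at 1.06 and 202139_at of AKR7A2 at 1.73. GADD45A was thus nearer to this AKR1C2 set than any other set of the family was, by a measure that the 16 h arrays dominate.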

How the data were processed

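RNA from 22Rv1 cells was measured on 12 Affymetrix U133 Plus 2.0 arrays. The authors deposited 54675 values per array on the log2 scale. The submitters' processing notes name GCRMA, without a version, which subtracts a background that depends on probe sequence, makes the arrays' distributions alike and combines the probes of each set. A shift common to most genes is removed by such scaling. The aligner of probes to genes and the genome build are not given in the sources used here. Signals of _x_at and _s_at sets can include related transcripts. Members were found through the platform annotation, in which 41097 probe sets had 1 symbol, 1801 several and 11777 none listed. The 62 control probe sets were left out of the tests.

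All 12 arrays entered 1 limma 3.58.1 fit in R 4.3.3 (lmFit and eBayes, 4 groups, 8 residual and 3.75 prior degrees of freedom) over the 27306 probe sets whose mean was at least 2.11, the median. Tests were two-sided, with Benjamini-Hochberg adjustment over all of them and a threshold of 0.05, and the fit was tested on simulated data. Folds are 2 to the power of the log2 difference. Where a group was not above the highest Bacillus control on any array, a fold is a bound against that control. This control replaced the tryptophan control alone after the values were seen. The number of arrays limits the precision.

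The members and gene lists were chosen with earlier results of these data known. Named genes were all members, list genes called at 4 h or 6 h, up to 4 list genes in each direction with the largest 16 h difference among those called, and the 5 genes most like AKR1C2. The same search for AKR1B1 could not be made, as no probe set was listed for it. Other normalisations, filters, priors, weights, samples and a replicate block were tried as alternatives. Replicate numbers shared between titles did not meet the criterion for pairing. Promoter windows and their names came from RefSeq.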

Additional observations from a re-analysis of the deposited data

Results flagged for a closer look

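1 probe set stood out for opposite differences at 2 times. 202139_at of AKR7A2 was higher than vehicle by 0.10 at 6 h, with every 6 h array above every vehicle array. At 16 h its difference from vehicle was -0.50, with every 16 h array below every vehicle array. No p-value is given for the difference between those times, since values on the 16 h arrays are given as a description. Both differences share the vehicle arrays.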

How the results depend on the processing

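With 1 probe set per gene, 6 members were tested. 5 were called both at 16 h against vehicle and at 16 h against 6 h. These replaced 10 and 11 of 13, because fewer sets enter. Over all 12635 genes tested in this way, 5405 and 5390 were called. Leaving out 1 array at a time gave 10 to 11 member calls at 16 h and 9 to 11 from 6 h to 16 h. Over all tested probe sets these fits called 9001 to 10906 and 8422 to 10625. At 4 h, at 6 h and between them 0 members were called. No alternative called a member at 4 h or 6 h, and none reversed a called value. Of 1310 alternatives of single member values, 12 lost a call and 7 gained one, all in 214259_s_at of AKR7A2 and the AKR7A3 sets and all involving the 16 h arrays. Over all tested probe sets, calls at 4 h numbered 80 and ranged from 13 (without 4 h replicate 3) to 405 (without vehicle replicate 2). At 6 h they numbered 186 and ranged from 1 (only the 2 groups compared) to 680 (without vehicle replicate 2), so the early background depends on these choices. Centring each array on its median moved the median of all differences between 6 h and 16 h by -0.14. Of the 18 same-numbered pairs of arrays 7 had deviations correlated at over 0.1, and 8 of 12 arrays correlated best with their own number, a hint from the data and not from the design. With the replicate block, 0 members were called at 4 h, 6 h and between them, and 11 at both 16 h comparisons. Calls over all sets were then 158 at 4 h, 399 at 6 h, 11453 at 16 h and 11094 from 6 h to 16 h. Signals near the controls, as for AKR1B10, AKR1C4 and 3 AKR1C sets, carry little information.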
